A study of Mus musculus with 4 samples.

Results

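The genes described here are 40 genes of the interferon response, from the receptors and kinases that carry the signal to the antiviral proteins it induces, as measured in Langerhans cells of mice given TCDD (2,3,7,8-tetrachlorodibenzo-p-dioxin). They were taken as a fixed list of symbols. Every probe set that the platform annotation assigned to exactly 1 of these symbols was read on all 4 arrays of the series. This gave 50 probe sets for 37 genes, out of 22626 probe sets that are not array controls. Of the 37 genes, 30 passed the filter on dim signals through at least 1 probe set and 7 did not. The filter kept probe sets whose mean log2 signal over the 4 arrays reached the 40th percentile. The only probe set of Isg15 carried the symbol of a second gene as well, and none is listed under Xaf1 or Ddx58 in the annotation used here, so these 3 genes have no values here.

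Interferons are cytokines that put cells into an antiviral state. Type I interferons bind Ifnar1 and Ifnar2, which engage the kinases Tyk2 and Jak1 and bring a complex that holds Stat2 and Irf9 to the interferon-stimulated response element (ISRE) of target promoters. Interferon gamma binds Ifngr1 and Ifngr2. Langerhans cells are the dendritic cells of the epidermis, where they meet viruses that enter through the skin. TCDD acts through the aryl hydrocarbon receptor, a transcription factor.

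The 4 samples were primary Langerhans cells collected 24 h after an intraperitoneal injection of 100 µl and sorted to 95% purity. There were 2 groups of 2 arrays, vehicle (DMSO and olive oil) and 10 µg TCDD. Back skin was the source of control 2 and TCDD 2, while the labels of control 1 and TCDD 1 leave the site out. Each pair is called a preparation, and that its arrays belong together is assumed. The labels give no genotype, strain or age, and do not say whether an array stands for 1 animal or a pool, so the spread between arrays may be technical. For control 2 the labels conflict, since TCDD appears in the treatment protocol of an array whose title and description say control. It was used as a control. Values without it are given where leaving it out changes a call, but only for some of the printed differences. How far the rest depend on it is not given.

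The median signal per array lay between 164.9 and 188.2. The actin controls, whose 3′/5′ ratio rises as RNA is shortened, gave a ratio that was 49.7 on control 1 and between 3.48 and 7.71 on the other arrays. Of 10 Langerhans cell markers, 10 passed the filter; the adhesion molecule Epcam read 7541 to 10032, and langerin (Cd207) 2120 and 5343 (control and TCDD) where no site was named, and 7210 and 2155 in back skin. Of 11 T cell markers, which include those of the T cells that live in the epidermis, 7 passed the filter. Their summed signal was 793.9 and 1506.5 (control and TCDD) where no site was named, and 2228 and 785 in back skin. Measured keratinocyte markers (5 of 8) summed to between 848 and 1031 and melanocyte markers (5 of 6) to between 955 and 1269.

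The promoters were searched for the site that the interferon-activated complex binds. RefSeq promoter windows of GRCm38.p6, 250 bases before to 50 after the start of transcription, were given for 35 of the 40 genes. The core of the ISRE, spelled GAAANNGAAA and searched on both strands with overlapping matches counted, lay in a window of 19 of the 35 genes (54.3%). It lay in 1079 of all 27025 genes with a window (3.99%). The 4 interferon-inducible GTPases with a window (Gbp2, Gbp3, Igtp and Irgm1) all held a match, as did 6 of 10 antiviral effectors, 3 of 5 genes of the OAS family and PKR, 2 of 5 transcription factors and 0 of 4 receptor genes. A match is a description of letters and does not show that a factor binds there.

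**Figure D1:**
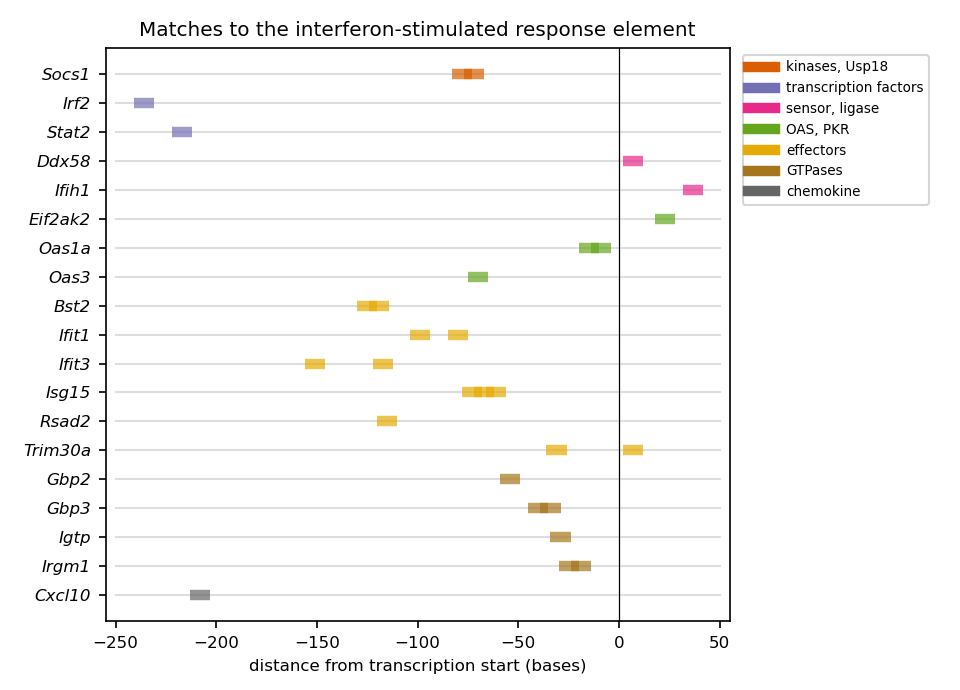
Position of each ISRE match (coloured bars, 10 bases long) in the promoter windows of the 19 genes that held one, in bases from the start of transcription. Colours give the role of the gene, overlapping matches appear as darker stretches, and where a gene has several start sites their matches share a line. Most matches lie upstream of the start, and those of Ddx58, Ifih1 and Eif2ak2 and 1 of Trim30a lie after it.

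The 150 bases before the start are shown for 6 of these genes. Of these, 3 (Bst2, Gbp2 and Rsad2) are among the genes with the largest TCDD differences below. The other 3 (Ifit1, Oas1a and Irgm1) went opposite ways in the preparations under the deposited scaling. For Ifit1 and Oas1a this rests on small log2 ratios of TCDD to control where no site was named (0.09 and 0.06). The median signals of those arrays themselves differed (164.9 on control 1 and 180.8 on TCDD 1). Sequences run 5′ to 3′ on the strand of the gene, and capitals mark the ISRE match.
Bst2 (chr8:71537473-71537622, minus strand): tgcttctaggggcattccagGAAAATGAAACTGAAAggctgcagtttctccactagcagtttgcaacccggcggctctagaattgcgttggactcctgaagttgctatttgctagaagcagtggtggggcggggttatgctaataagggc
Gbp2 (chr3:142620513-142620662, plus strand): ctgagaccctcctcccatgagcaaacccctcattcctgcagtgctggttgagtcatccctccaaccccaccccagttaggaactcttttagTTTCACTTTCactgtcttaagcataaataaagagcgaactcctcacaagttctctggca
Rsad2 (chr12:26456453-26456602, minus strand): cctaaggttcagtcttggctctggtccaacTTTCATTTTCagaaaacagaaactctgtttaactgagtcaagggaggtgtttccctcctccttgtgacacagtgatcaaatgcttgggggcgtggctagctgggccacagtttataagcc
Ifit1 (chr19:34640739-34640888, plus strand): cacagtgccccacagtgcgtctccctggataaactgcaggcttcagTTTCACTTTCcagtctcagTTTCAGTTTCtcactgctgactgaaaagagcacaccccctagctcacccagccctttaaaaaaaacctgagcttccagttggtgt
Oas1a (chr5:120907526-120907675, minus strand): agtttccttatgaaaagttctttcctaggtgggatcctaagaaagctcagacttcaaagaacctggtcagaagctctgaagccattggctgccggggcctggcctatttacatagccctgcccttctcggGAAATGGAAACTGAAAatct
Irgm1 (chr11:48871421-48871570, minus strand): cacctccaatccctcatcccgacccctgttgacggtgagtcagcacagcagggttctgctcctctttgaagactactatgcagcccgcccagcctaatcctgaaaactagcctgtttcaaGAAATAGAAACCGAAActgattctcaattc
In Bst2, Oas1a and Irgm1 a pair of matches overlaps, and Ifit1 holds 2 separate ones.

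No interferon gene passed the test for TCDD with all 4 arrays. Signals are MAS5 intensities in arbitrary units, and differences are TCDD minus control on the log2 scale from limma, with the preparation (site or experiment, which cannot be told apart) as a second term. The summed signal of the 30 measured genes was 27965 and 26417 (control and TCDD) where no site was named, and 27872 and 26541 in back skin. Their median difference was -0.15, beside -0.03 over all 8413 measured genes. Of their 39 tested probe sets, 0 passed an adjusted p of 0.05 (limma, smallest adjusted p 0.9999), as did 0 of all 13576 (0.0%). At an unadjusted p under 0.05, 2 of the 39 were higher after TCDD, those of Bst2 and Ifi35, beside 0.906% of all probe sets, and 0 were lower, beside 0.56%. A median standard error of 0.364 over all probe sets limits what these 4 arrays can show.

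Control values come first wherever a pair is given. Direction was read from the log2 ratio of TCDD to control in each preparation. Of the 30 genes, 2 were higher in both preparations (Bst2 and Ifi35), beside 17.9% of all measured genes, and 8 were lower in both, beside 22.8%. These 8 were Irf2, Oas2, Gbp2, Rsad2, Irf9, Iigp1, Cxcl10 and Oasl1. A further 12 were higher after TCDD where no site was named but lower in back skin, beside 31.3% of all genes, and 8 were the reverse, beside 27.9%. Opposite signs were thus found in 20 of the 30 (66.7%), beside 59.2% of all genes. Median centring changed this split to 8 and 10, beside 21.1% and 39.6% of all genes. It raised the number lower in both to 10, beside 1852 of all 8413 genes. Quantile normalization gave 11 lower in both, beside 1960 of all 8417 genes. In both arrays of TCDD the signal was above both controls for 2 genes (Bst2 and Ifi35; 11.4% of all genes) and below both for 6 (Irf2, Oas2, Gbp2, Rsad2, Irf9 and Iigp1; 14.1% of all genes). For Gbp2 this depends on 206 against 204.8 in back skin, so its place in these counts rests on the scaling.

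**Figure D2:**
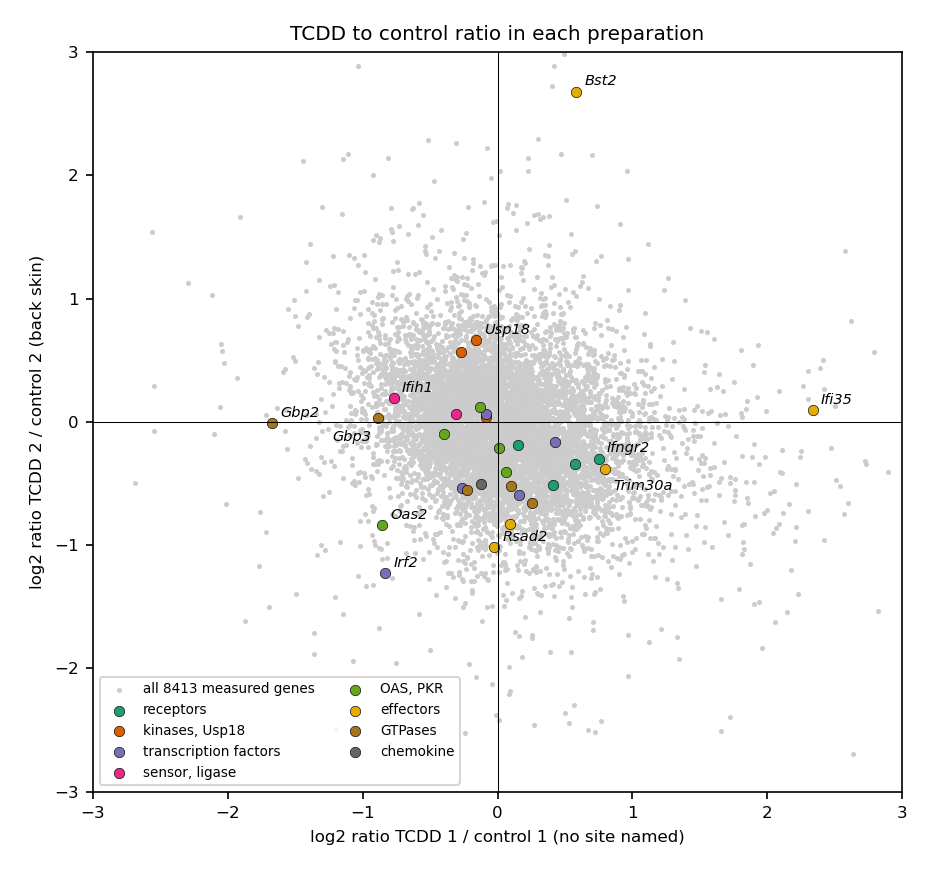
Log2 ratio of TCDD to control where no site was named (x axis) against that in back skin (y axis), for 8413 measured genes (grey) and the 30 interferon genes (coloured by role); 8 grey genes lie outside the axes. Bst2, Ifi35 and Gbp2 stand far from zero in 1 preparation each, and Irf2 and Oas2 are lower in both.

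Control 2 held the highest of the 4 values for 15 of the 30 genes, beside 30.1% of all measured genes. Control 1 held it for 9 (30.2%), TCDD 1 for 2 (19.1%) and TCDD 2 for 4 (20.6%). TCDD 2 held the lowest value for 12 of the 30 genes, where 25.8% of all genes had their lowest value there. The median gene of the 30 differed 1.61-fold between its highest and lowest array, and the median of all genes 1.55-fold.

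**Figure D3:**
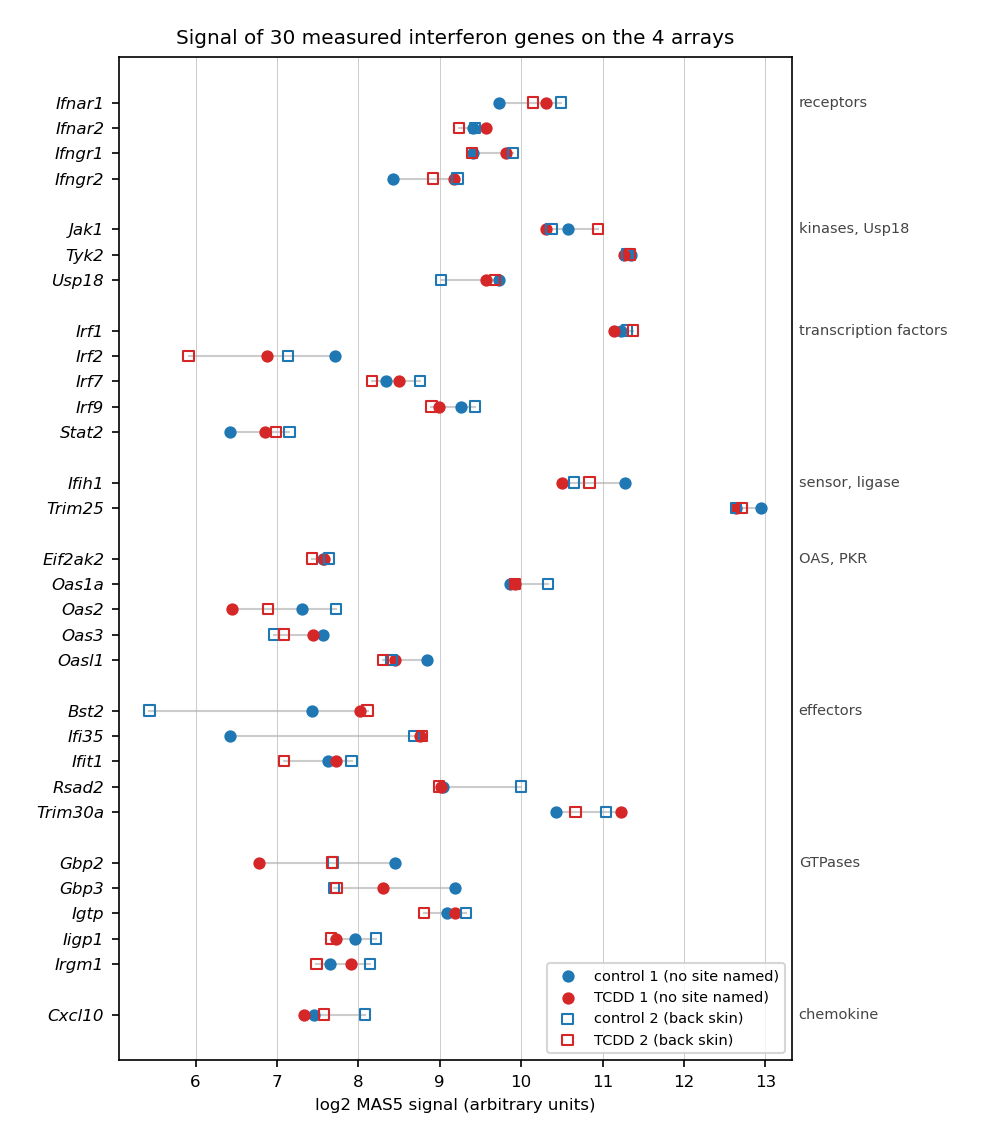
Log2 MAS5 signal of the brightest probe set of each of the 30 measured genes on the 4 arrays, by role. Circles are the arrays where no site was named and squares those from back skin, blue is control and red TCDD, and grey lines span the range. Levels are not comparable between genes. Tyk2 and Irf1 hardly vary, Bst2 is low on control 2 alone and Ifi35 on control 1 alone.

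All 4 receptor chains read higher after TCDD where no site was named and lower in back skin. This held under the deposited scaling, quantile normalization and median centring, where 31.3%, 25.5% and 21.1% of all genes had this direction. Ifnar1, a chain of the type I receptor, read 851.1 and 1269 (control and TCDD) where no site was named, and 1433 and 1133 in back skin. Ifnar2, its partner, read 682.1, 758.2, 688.8 and 604.7 in that order. Ifngr1, the ligand-binding chain of the interferon gamma receptor, read 676.7, 899.8, 956.6 and 672.9. For each of these genes the arrays of the 2 groups overlap. The brightest probe set of Ifngr2, the signalling chain, read 342.5, 576.2, 594.9 and 484.1 in that order, and its other probe set 54.6, 283.9, 284.9 and 245.8. Both are lowest on control 1, where the actin 3′/5′ ratio was highest.

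The summed signal of the receptors was 2552 and 3503 (control and TCDD) where no site was named, and 3673 and 2895 in back skin. Control 1 and TCDD 2 were thus below the other pair of arrays, as they were in the summed T cell marker signal and in langerin, given above. The summed signal of the 10 Langerhans cell markers did not follow this pattern. It was 42743 and 46906 (control and TCDD) where no site was named, and 60371 and 49586 in back skin. The part of cell composition, T cells included, or of RNA quality in the receptor values was not tested. In RNA from sorted cells, fewer cells of a type and less RNA per cell cannot be told apart. The differences of the 4 chains lay between -0.05 for Ifngr1 and 0.23 for Ifngr2.

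Tyk2, which binds the Ifnar1 chain, read 2609 and 2457 (control and TCDD) where no site was named, and 2524 and 2591 in back skin, a 1.06-fold range. Jak1, which serves both receptors, read 1525, 1265, 1326 and 1965 by its brightest probe set (difference 0.15). Its other probe sets differed by -0.14 and 0.91, so they disagreed in sign. Usp18, a protease that removes Isg15 from proteins and dampens type I receptor signalling, read 846.6, 756.7, 517.8 and 819.4. Its value on control 2 was the lowest. Socs1, a feedback inhibitor of the kinases, stayed below the filter, with 39.4 and 151.3 (control and TCDD) where no site was named, and 139.1 and 92.7 in back skin.

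Among the transcription factors, Irf2 and Irf9 were lower in both preparations. Irf2, a factor that competes with Irf1 at the same promoter sites, read 209.3 and 117.3 where no site was named, and 140.9 and 60.3 in back skin. Neither TCDD value reached the lower control, and the difference was -1.03 ± 0.47 (SE, n = 2 per group; limma, adjusted p = 0.9999). Its value on TCDD 2 lay at the 26.0th percentile of that array. Leaving out single arrays moved the Irf2 difference between -1.51 (without TCDD 1) and -0.55 (without TCDD 2). Irf9, the DNA-binding partner of Stat2, read 611.4 and 509.6 where no site was named, and 691.4 and 476.8 in back skin (-0.40 ± 0.34; limma, adjusted p = 0.9999).

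Irf1, a factor induced by both interferon types, read 2405 and 2264 (control and TCDD) where no site was named, and 2527 and 2647 in back skin (-0.01), with no separation of the groups. Irf7, the factor that amplifies interferon alpha production, read 323.8, 362.2, 433.4 and 286.9 in that order. It was highest in one control and lowest in a TCDD array, with ratios of 0.16 where no site was named and -0.60 in back skin. Stat2 read 86.1, 115.4, 142.3 and 127 and lay just inside the filter, with a geometric mean of 115.8 against the limit of 115.4. A dimmer probe set of Stat2 stayed below it. Ifit3 lay just outside, at 111.5.

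The sensing genes measured were Ifih1 and Trim25, and both had their highest value on control 1. Ifih1 (MDA5), a sensor of viral double-stranded RNA, read 2484 and 1455 (control and TCDD) where no site was named, and 1603 and 1832 in back skin (-0.29). Trim25, a ubiquitin ligase that acts on the sensor encoded by Ddx58, read 7916, 6398, 6391 and 6701 in that order by its brightest probe set. All 3 probe sets of Trim25 were highest on control 1, and their differences ran from -0.20 to -0.05.

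The OAS family makes the messenger that switches on RNase L. Oas2 read 158.3 and 87.6 where no site was named, and 211.7 and 118.7 in back skin, lower after TCDD by nearly the same ratio in both preparations (-0.85 and -0.83). The difference was -0.84 ± 0.44 (SE, n = 2 per group; limma, adjusted p = 0.9999), from -1.06 to -0.63 when single arrays were left out. No array of TCDD reached either control. Oas1a, a relative, read 931.6 and 970.5 where no site was named, and 1287 and 973.4 in back skin (-0.17). Oas3 read 189.9 and 173.4, and then 125.2 and 135.9 (-0.01), so its groups overlapped. Oasl1, a negative regulator of Irf7 translation, read 460.5 and 349.9, and then 339.2 and 316.1 (-0.25). Oasl2 stayed below the filter at 45.3 on control 1 and 83.3 to 91.5 on the others. Genes of this family are similar in sequence, and how far their probe sets share signal was not tested.

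Eif2ak2, which encodes the RNA-activated kinase PKR, read 189.7 and 191.1 (control and TCDD) where no site was named, and 199.6 and 172.6 in back skin (-0.10). Its other probe set differed by 0.43, the opposite sign.

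The antiviral effectors held both genes that were higher after TCDD in both preparations. Bst2, the tetherin that holds budding virus at the cell surface, read 172.9 and 259.4 (control and TCDD) where no site was named, and 43.2 and 276.7 in back skin. Both TCDD values exceeded both controls, and the control 2 value lay at the 20.7th percentile of that array. The difference was 1.63 ± 0.55 (SE, n = 2 per group; limma, adjusted p = 0.9999, unadjusted p = 0.0163). Bst2 is also a surface marker of plasmacytoid dendritic cells. Of 8 markers of those cells, 6 had a probe set and 2 passed the filter (Tcf4 and Cox6a2), with a summed signal of 1042 and 1141 where no site was named, and 1337 and 1307 in back skin. Their part in the Bst2 values was not tested.

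Ifi35, an interferon-induced leucine zipper protein, read 85.7 and 432.7 (control and TCDD) where no site was named, and 410.7 and 439.3 in back skin. Only control 1 stood apart. The difference was 1.22 ± 0.51 (SE, n = 2 per group; limma, adjusted p = 0.9999, unadjusted p = 0.043), made up of a ratio of 2.34 where no site was named and 0.10 in back skin. The part of RNA quality on control 1 was not tested.

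Rsad2 (viperin), an enzyme that makes a chain-terminating nucleotide against viral polymerases, was set apart by the other control. Its brightest probe set read 524.6 and 515.7 (control and TCDD) where no site was named, and 1025 and 507.5 in back skin, so only control 2 stood apart. The difference was -0.52 ± 0.38 (SE, n = 2 per group; limma, adjusted p = 0.9999) and was -1.003 without control 1 and -0.04 without control 2. Its other tested probe set differed by 0.20, and the mean over all probe sets of the gene by 0.18, so the direction rests on the choice of probe set.

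Ifit1, which binds viral RNA lacking host cap marks, read 198.1 and 211.4 (control and TCDD) where no site was named, and 241.6 and 136.1 in back skin. Trim30a, which restrains Toll-like receptor signalling, read 1380, 2398, 2114 and 1625 by its brightest probe set (0.21) and differed by -0.34 by another. Neither separated the groups.

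The remaining effectors were dim. Ifit2 read between 5.5 and 24.3 and Mx2, a dynamin-like GTPase, between 12.6 and 23.3, below the 20th percentile signal of every array (36.6 to 40.6). Mx1, its relative active against influenza virus, read 136.3 on control 1 and 67.9 to 92.3 on the others. Ifit3 read 83 and 97.6 (control and TCDD) where no site was named, and 125.5 and 151.8 in back skin. Isg20, an exonuclease, read 46.2 and 83.9 where no site was named, and 129.6 and 29.3 in back skin. These 5 genes, with Oasl2 and Socs1, were not tested.

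The interferon-inducible GTPases attack the vacuoles of intracellular pathogens. Of the 5 measured, 2 were lower after TCDD in both preparations (1 under quantile normalization), beside 22.8% of all measured genes. In both, 0 were higher, beside 17.9%, and the median difference was -0.39. Median centring also gave 2 lower in both, while those lower where no site was named but higher in back skin rose from 1 to 2. Gbp2 read 351.1 and 110.3 (control and TCDD) where no site was named, and 206 and 204.8 in back skin. Its difference of -0.84 ± 0.47 (SE, n = 2 per group; limma, adjusted p = 0.9999) came from the arrays where no site was named, since the back skin ratio was -0.01. That ratio is small beside the gap between the median signals of control 2 and TCDD 2 (188.2 and 172.8), so its sign rests on the scaling. The Gbp2 difference moved when single arrays were left out. It was -0.45 without control 1, -0.39 without TCDD 1, -1.22 without control 2 and -1.29 without TCDD 2. Gbp3 read 582.6 and 314.8, and then 207.4 and 212.4 (-0.43). A second Gbp2 probe set, below the filter, read 230 and 33.6 where no site was named, and 60.9 and 116.3 in back skin. Both genes were highest on control 1.

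By their brightest probe sets, the immunity-related GTPases of the list (Iigp1, Irgm1 and Igtp) were highest on control 2 and lowest on TCDD 2. This course is not particular to them, since Ifit1, Rsad2, Eif2ak2, Ifngr1, Irf7 and Irf9 shared it. Of all measured genes, 30.1% were highest on control 2 and 25.8% lowest on TCDD 2. The share with both is not given. Iigp1 read 248.4 and 212.3 (control and TCDD) where no site was named, and 297.3 and 202.9 in back skin (-0.39 ± 0.36; limma, adjusted p = 0.9999), and differed by -0.26 without control 2. Irgm1, a regulator of the others, read 201.6, 241, 283 and 179.2, and Igtp (Irgm3) read 545.8, 585.1, 641.7 and 447.9. For Irgm1 and Igtp the groups overlapped. The other Iigp1 probe set, below the filter, was highest on TCDD 1. It read 12.7 and 36.9 where no site was named, and 8 and 6.1 in back skin.

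Cxcl10, the chemokine that draws T cells bearing Cxcr3, read 176 and 161.4 (control and TCDD) where no site was named, and 270 and 190.8 in back skin. It was lower after TCDD in each preparation, by ratios of -0.12 and -0.50, while TCDD 2 lay above control 1.

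**Figure D4:**
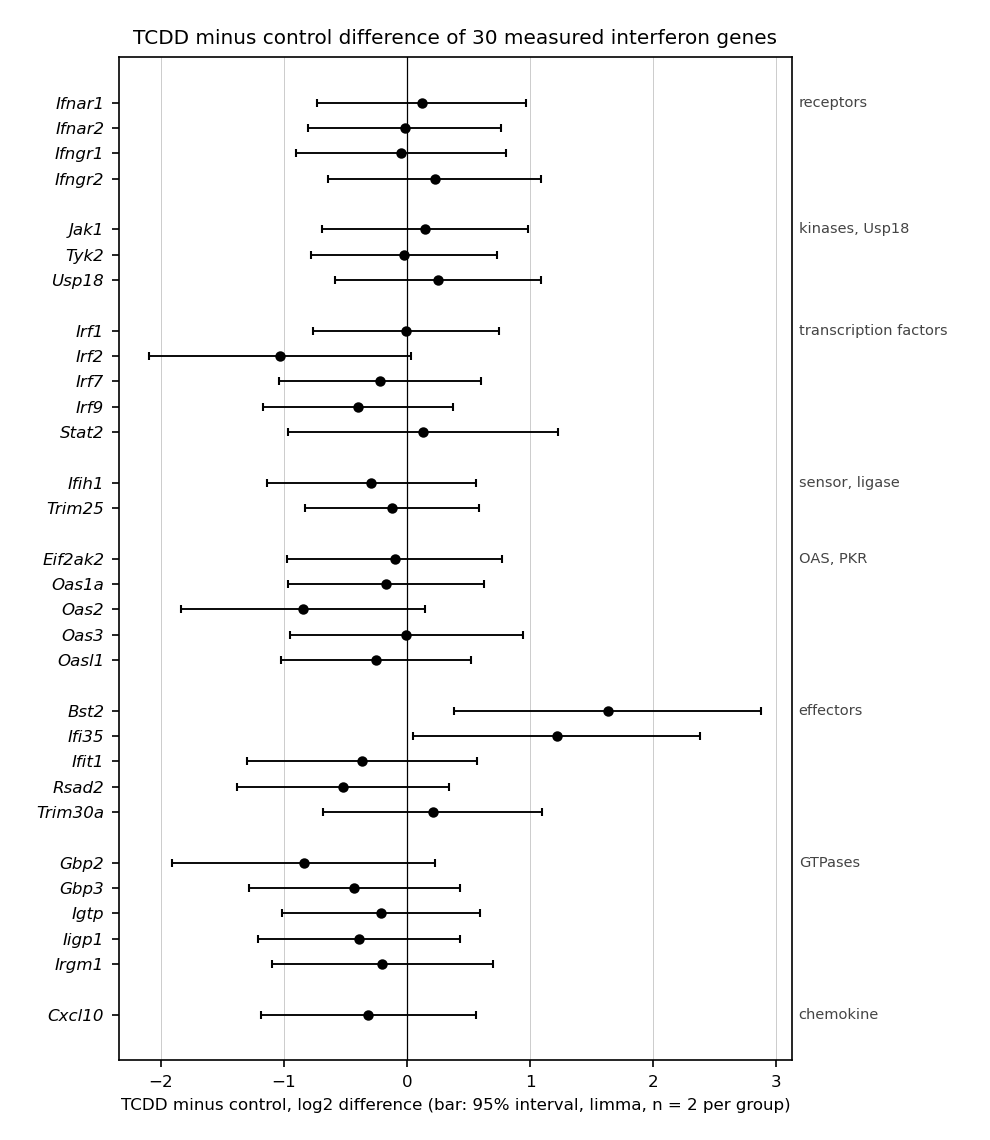
TCDD minus control log2 difference of the 30 measured genes with its 95% interval (limma, n = 2 per group), by role. The intervals of Bst2 and Ifi35 lie above zero before adjustment over all probe sets, that of Irf2 narrowly includes it, and the others span it.

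Directions were counted by ISRE match as well. Of 15 measured genes with a match, 1 was higher and 4 were lower after TCDD in both preparations, with a median difference of -0.21. Of 12 measured genes whose windows held none, 1 was higher and 2 were lower, with a median of -0.02. Oas2, Iigp1 and Usp18 were measured but had no window, so they are in neither group. Oas2 and Iigp1 were lower in both preparations. Over all measured genes, 17.9% were higher and 22.8% lower in both preparations, with a median of -0.03. The difference between the medians with and without a match was not tested.

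Single arrays decided the calls that could be made. When an array was left out the preparation term was dropped, and the lone array of a group was assumed to vary like the others. Without control 1, Bst2 passed (2.63 ± 0.47; limma, adjusted p = 0.0399), 1 of the 39 probe sets, beside 0.081% of all probe sets higher after TCDD in that fit. This call compares both TCDD arrays with control 2 alone, whose 43.2 was the lowest Bst2 value. Without control 2 the difference of Bst2 was 0.63 (limma, adjusted p = 0.539).

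Without control 2, the array with conflicting labels, Ifi35 (2.35 ± 0.35; limma, adjusted p = 0.00025) and the dimmer probe set of Ifngr2 (2.27 ± 0.45; limma, adjusted p = 0.00484) passed, 2 of the 39 beside 1.96% of all probe sets. Both calls compare the TCDD arrays with control 1 alone. Without control 1, Ifi35 differed by 0.09 and that probe set of Ifngr2 by -0.11. The median difference of the 30 genes was -0.20 without control 1, -0.18 without TCDD 1, -0.04 without control 2 and -0.06 without TCDD 2. The same medians over all measured genes were -0.04, -0.03, -0.03 and -0.01. Of the 30, 22 were lower after TCDD without control 1 (54.8% of all measured genes), 21 without TCDD 1 (52.7%), 19 without control 2 (52.7%) and 19 without TCDD 2 (50.8%).

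**Figure D5:**
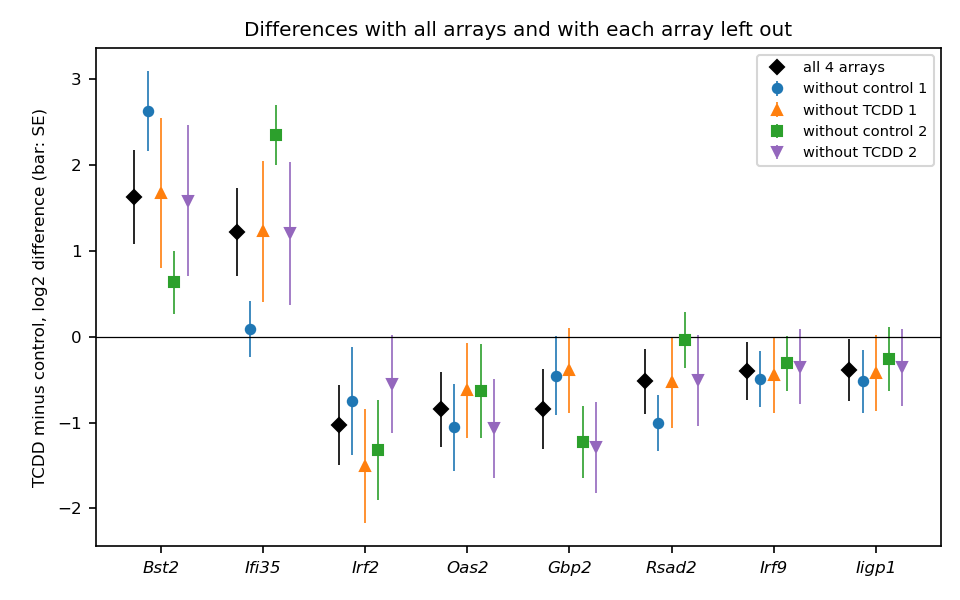
TCDD minus control log2 difference of the 8 genes with the largest difference of one sign in both preparations, with all 4 arrays (diamonds) and with each array left out; bars are standard errors. Bst2 lies at 2.63 or 0.63 and Ifi35 at 0.09 or 2.35 according to which control remains, and Oas2, Irf9 and Iigp1 vary least.

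Back skin was then set against the other preparation, with treatment as a second term. Of the 39 tested probe sets, 0 passed (limma, smallest adjusted p 0.9994), as did 0 of all 13576 (0.0%). At an unadjusted p under 0.05, 0 of the 39 were higher in back skin, beside 1.05% of all probe sets, and 1 was lower, that of Gbp3, beside 0.972%. Gbp3 was lower in back skin both in the controls (log2 ratio -1.49) and after TCDD (-0.57), a difference of -1.03 ± 0.38 (SE, n = 2 per group; limma, adjusted p = 0.9994, unadjusted p = 0.0237). Irf2 differed by -0.77 ± 0.47 and Oas3 by -0.48 ± 0.42 (limma, adjusted p = 0.9994 for each), each lower in back skin in both treatments. Leaving out single arrays moved Gbp3 between -1.47 (without TCDD 1) and -0.58 (without control 1). The same step moved Irf2 to -0.35 without control 1, -1.18 without TCDD 1, -1.38 without control 2 and -0.15 without TCDD 2. Bst2 was lower in back skin between controls (log2 ratio -2.001) but not between TCDD arrays (0.09), a difference of -0.95 ± 0.55 (limma, adjusted p = 0.9994). Without control 2 this difference was 0.39, and without TCDD 2 it was -2.29.

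Ifi35 was higher in back skin by 1.14 ± 0.51 (SE, n = 2 per group; limma, adjusted p = 0.9994), again through control 1: its back skin ratio was 2.26 between controls and 0.02 between TCDD arrays. Without TCDD 1 it passed (2.31; limma, adjusted p = 0.0201), beside 0.648% of all probe sets, and without control 1 it was -0.03. Of the 30 genes, 6 were higher and 4 lower in back skin in both treatments (20% and 13.3%), beside 23.1% and 22.5% of all measured genes. Their median difference was 0.04.

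The rest of the pathway was taken from lists of 92 further genes, of which 64 had a probe set and 41 passed the filter. Of these 41, 3 were higher and 8 lower after TCDD in both preparations (background 17.9% and 22.8%, as above). The other 30 went opposite ways, beside 59.2% of all measured genes. Their median difference was -0.06, and 0 of their 64 tested probe sets passed the test or reached an unadjusted p under 0.05 for TCDD (limma). The largest differences of one sign in both preparations were those of Ifitm3, a membrane protein that blocks viral entry, Sp110, a nuclear body protein, and Ifi47, an immunity-related GTPase. Ifitm3 read 143.4 and 95.8 where no site was named, and 226 and 140.1 in back skin (-0.64). Sp110 read 243.4 and 235.3, then 319.5 and 157.7 (-0.53), and Ifi47 191.5 and 136.8, then 123.2 and 86.5 (-0.50). For Ifitm3 and Sp110 both TCDD values lay below both controls, and for Ifi47 the groups overlapped. The 22 measured members of the list of further induced genes had 2 higher and 6 lower in both preparations, beside 17.9% and 22.8% of all measured genes.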

How the data were processed

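The labels give 4 samples of sorted mouse Langerhans cells, 1 array each. Deposited signal intensities are linear; affy and MAS5 appear in the submitters' processing notes, without versions. All 4 columns of intensity had a mean of 500 after removal of the lowest and highest 2% of probe sets. Signals were taken to log2. The 13576 probe sets at or above the 40th percentile of mean log2 signal (6.85) were fitted in R 4.3.3 by limma 3.58.1. Its terms were treatment and preparation, leaving 1 residual degree of freedom, with a variance trend. P-values were adjusted over all probe sets (Benjamini-Hochberg). The fit was tested on simulated data. That arrays of a preparation belong together is assumed from the labels, which date the experiment for the controls only. Across probe sets, the back skin ratios of the controls and of the TCDD arrays correlated at -0.18. Log2 signals of the tested probe sets correlated at 0.933 (control 1 with TCDD 1) and 0.947 (control 2 with TCDD 2) within preparations. Across them the values were 0.960 (TCDD 1 with control 2), 0.957 (TCDD 1 with TCDD 2), 0.941 (control 1 with TCDD 2) and 0.915 (control 1 with control 2). The pair of controls thus had the lowest correlation of all pairs. A gene was read by its brightest probe set. Of 22626 probe sets, 20380 had 1 symbol, 691 several and 1555 none here.

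All 40 genes are named. Errors and p-values are printed for the 8 with the largest TCDD difference of one sign in both preparations and the 4 with the largest preparation difference of one sign in both treatments, also for Bst2 between preparations (added after its value was seen), and for probe sets that passed a fit. Genes and lists were chosen with earlier results of these data known. Alternatives tried were median centring, quantile normalization, a 60th percentile filter or none, an offset of 50, no variance trend, no second term, the mean of all probe sets of a gene, and each array left out.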

Additional observations from a re-analysis of the deposited data

Results flagged for a closer look

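For 20 of the 30 measured genes the log2 ratio of TCDD to control had opposite signs in the 2 preparations (66.7%), beside 59.2% of all measured genes. Under median centring the number was 18 (60% beside 60.7%), and under quantile normalization 17 (56.7% beside 58.7%), each near the share of all genes. With 1 pair of arrays per preparation the difference was not tested. The back skin ratio minus the other was negative for all 4 receptor chains: -0.91 for Ifnar1, -0.34 for Ifnar2, -0.92 for Ifngr1 and -1.05 for Ifngr2. It was also negative for Trim30a (-1.18), Ifit1 (-0.92), Irgm1 (-0.92), Irf7 (-0.76), Igtp (-0.62), Stat2 (-0.59), Oas1a (-0.46) and Eif2ak2 (-0.22).

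It was positive for Ifih1 (0.96), Gbp3 (0.92), Jak1 (0.84), Usp18 (0.82), Trim25 (0.38), Oas3 (0.25), Irf1 (0.15) and Tyk2 (0.12). These values are differences of 2 ratios, each from single arrays, and have no error estimate.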

How the results depend on the processing

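Of the 8 TCDD differences and the 4 preparation differences named by rule, 2 changed sign. Rsad2 gave 0.18 as the mean of all its probe sets. The preparation difference of Ifi35 ran from -0.027 (without control 1) to 2.31 (without TCDD 1) when single arrays were left out. That of Bst2, which is outside these 12, changed sign as well, to 0.39 without control 2. With quantile normalization, median centring, no filter, an offset of 50, no variance trend or no second term, the 12 kept their sign and 0 passed. The 60th percentile filter, which tests fewer genes, left 1 gene higher and 3 lower after TCDD in both preparations. The mean of all probe sets gave 4 higher and 5 lower. Shares of all genes under these settings are not given here, so the counts stand without a background. These counts have no value with an array left out, since a preparation is then incomplete. Leaving out single arrays gave 0 to 285 probe sets past the test for TCDD, of which 0 to 2 belonged to the genes described, and 0 to 89 for the preparation, of which 0 to 1 did. The cause of these changes was not tested. The ISRE with a final C (GAAANNGAAAC) lay in windows of 15 of 35 genes, beside 0.944% of all genes. With 2 arrays per group the median 95% half-width before adjustment was 0.83 (log2).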

Other observations

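The interferons themselves were dim. Of 14 ligand genes listed, 9 had a probe set each, and 7 of the 9 lay below the filter. Ifnb1, which encodes interferon beta, read 164.1 and 129.6 (control and TCDD) where no site was named, and 179.7 and 186.8 in back skin. Ifng, which encodes interferon gamma, read 58.5, 111, 6.2 and 57.1 in that order, below the filter. Among the interferon alpha genes, only Ifna11 passed the filter, and it read 139.8, 141, 190.6 and 113.7 in that order. Ifna1 read 173.7, 159.5, 46.7 and 45.2 and Ifna2 read 49.1, 27.6, 150.7 and 110.5, both below the filter. Back skin was thus the lower preparation for Ifna1 and the higher one for Ifna2. The interferon alpha genes are near-identical in sequence, and shared signal between their probe sets was not tested.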
